A study of Mus musculus with 20 samples.

Results

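Chemokines are small secreted proteins that direct the movement of leukocytes, and 10 of their genes were followed across 20 mouse breast tumors. The members were the rows of the deposited count table that carry the names Cxcl1, Cxcl2, Cxcl5, Cxcl9, Cxcl10, Cxcl12, Cxcl16, Ccl2, Ccl5 and Ccl6, which are 10 of the 43346 genes in the table. All 10 were found and all passed the filter on low counts, with 18883 genes tested in all. Each tumor came from a different female [BALB/c-neuT x FVB/J] F1 mouse, bred from neuT-positive BALB/c males and wild-type FVB/J females. Every tumor carries neuT, an activated rat Her2/neu oncogene driven in this mouse line by the mouse mammary tumor virus promoter, and arose spontaneously in young adult animals (ages of single animals were not given). Messenger RNA was sequenced from a small piece of each frozen tumor, so that the tumor cells, stroma, vessels and leukocytes of that piece are measured together. The sample names divide the tumors into 9 called Lo and 11 called Hi, whose meaning is not given in the sources used here. No normal breast was measured, and the comparisons are between tumors.

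Chemokines act on G protein-coupled receptors, and each receptor is carried by certain leukocytes. Cxcl1, Cxcl2 and Cxcl5 attract neutrophils through Cxcr2, whereas Cxcl9 and Cxcl10 are induced by interferons and attract activated T cells and natural killer cells through Cxcr3. Cxcl12 is made mainly by stromal cells and acts through Cxcr4, with Ackr3 as a scavenging receptor. Cxcl16 is a membrane-anchored ligand of Cxcr6, which myeloid cells and many epithelial cells make. Among the CC chemokines, Ccl2 recruits monocytes through Ccr2, Ccl5 recruits T cells and myeloid cells through receptors that include Ccr1, and Ccl6 is a macrophage product of rodents that acts through Ccr1.

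The 10 genes lie on Chr5, Chr6 and Chr11 of the mm10 map. Cxcl5 (90759299 to 90761625), Cxcl1 (90891241 to 90893115) and Cxcl2 (90903899 to 90905909) are neighbors on Chr5. Cxcl9 (92321331 to 92328079) and Cxcl10 (92346638 to 92348889) form a pair farther along the same chromosome. Cxcl12 is on Chr6 (117168535 to 117181367), and Cxcl16 (70453983 to 70459984), Ccl2 (82035571 to 82037453), Ccl5 (83525778 to 83530518) and Ccl6 (83587882 to 83593087) are on Chr11. Some of these intervals are shared with other genes of the table. Cxcl10 lies wholly within the interval of Art3, which had a median of 67 counts per tumor against 35 for Cxcl10. Cxcl16 shares 552 bases with Zmynd15 (median 847 counts), and Ccl6 lies within E230016K23Rik (median 19.5 counts). Ccl2 lies within Gm17268, which had 0 counts in every tumor. How reads in shared stretches were assigned, and whether strand was used, are not given in the sources used here, and the chemokines are also related in sequence to one another, so that reads assigned to the wrong member cannot be told apart here.

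The sequences before the transcription starts of Cxcl10, Cxcl9, Cxcl1 and Cxcl2 on Chr5 are shown because Cxcl10 was called with a list of interferon-stimulated genes in edgeR, and its neighbor Cxcl9 and the Cxcl1 and Cxcl2 pair were not (values below). The difference between the genes was not tested. Each is the 250 bases before the RefSeq start (GRCm38.p6, the C57BL/6 reference, not the alleles of these F1 mice), on the gene's own strand from 5′ to 3′. Of the 10 members, 6 had an entry in the promoter table used. Capitals mark matches, on either strand, to an interferon-stimulated response element (ISRE, here GAAA, any 2 bases and GAAA), a gamma-activated site (GAS, here TTC, any 3 bases and GAA) or the NF-kB consensus.
Cxcl10, chr5:92348890-92349139, minus strand: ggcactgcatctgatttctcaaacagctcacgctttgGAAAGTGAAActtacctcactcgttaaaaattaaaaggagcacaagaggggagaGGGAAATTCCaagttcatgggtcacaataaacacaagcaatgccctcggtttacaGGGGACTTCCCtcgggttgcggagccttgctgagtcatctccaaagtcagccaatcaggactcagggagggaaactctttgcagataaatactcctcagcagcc
Cxcl9, chr5:92328080-92328329, minus strand: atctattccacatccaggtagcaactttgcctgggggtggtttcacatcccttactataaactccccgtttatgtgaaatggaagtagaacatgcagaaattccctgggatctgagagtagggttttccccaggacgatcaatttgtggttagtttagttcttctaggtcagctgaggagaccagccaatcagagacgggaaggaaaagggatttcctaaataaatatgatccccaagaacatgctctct
Cxcl1, chr5:90890995-90891244, plus strand: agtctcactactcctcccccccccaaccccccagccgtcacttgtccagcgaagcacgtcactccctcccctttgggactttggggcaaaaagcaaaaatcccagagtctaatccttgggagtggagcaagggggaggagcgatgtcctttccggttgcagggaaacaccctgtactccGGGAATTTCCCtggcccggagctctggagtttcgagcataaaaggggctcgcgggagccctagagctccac
Cxcl2, chr5:90903649-90903898, plus strand: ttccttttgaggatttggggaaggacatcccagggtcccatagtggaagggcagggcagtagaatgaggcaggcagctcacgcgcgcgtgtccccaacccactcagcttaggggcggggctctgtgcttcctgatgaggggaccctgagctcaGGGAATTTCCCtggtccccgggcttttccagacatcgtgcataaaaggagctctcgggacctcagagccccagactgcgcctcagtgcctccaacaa
The Cxcl10 sequence holds 1 ISRE match, which starts 213 bases before the start site, and 3 NF-kB matches, 2 of which overlap each other. The Cxcl1 and Cxcl2 sequences each hold the same stretch, read as 2 overlapping NF-kB matches that begin 71 bases before the start in Cxcl1 and 97 bases before it in Cxcl2. Those letters were not found in the window of Cxcl9, nor in the windows of Cxcl12 and Ccl6, which are not printed. Of 32851 windows of this length in the reference, 2.98% hold an ISRE match, 7.02% a GAS match and 7.25% an NF-kB match. A match describes letters only and does not show that a factor binds.

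The counted reads of a library came to 38765682 in the shallowest and 65465755 in the deepest. Levels are given as CPM, the usual measure of a gene's counts relative to the size of its library, scaled with TMM factors, which adjust library sizes for differences in composition, and log2 CPM was computed with a prior count of 2. A count of 3, about the upper 95% Poisson bound for a count of 0, corresponds to between 0.0458 and 0.0774 CPM before this scaling. A ribosomal RNA locus took 6.29% to 27.7% of the counts, and the median correlation of a tumor's log2 CPM with the other tumors was at least 0.973. The tissue is labelled breast tumor, and 10 of 10 epithelial markers (Epcam, keratins and claudins among them) were above 0 in every tumor and summed to between 2832 and 4613 CPM.

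The neutrophil-attracting group was led by Cxcl1. Its level was lowest in tumor Lo 2 at 2.42 CPM, with a median of 4.999 CPM and a highest value of 7.32 CPM in tumor Hi 1. Cxcl5 ranged from 0.322 CPM in Lo 7 through a median of 0.794 CPM to 1.57 CPM in Hi 8, and Cxcl2 from 0.0595 CPM in Hi 3 through a median of 0.304 CPM to 0.690 CPM in Hi 6. Cxcl1 was thus the only member of this group with more than 82 counts in any tumor, and Cxcl2 rested on 3 to 36 counts. The lowest Cxcl2 value, 3 counts, has a 95% exact Poisson interval of 0.619 to 8.77 counts, which covers counting error only, as do all intervals here since reads carry no molecular identifiers. The log2 CPM of Cxcl1 went with the total count of the library within the Lo tumors (r = 0.94) and not within the Hi tumors (r = -0.10). Over all 20 tumors r was 0.39 (permutation p = 0.0918). Outside this group, Ccl6 was lower in deeper libraries (r = -0.45, permutation p = 0.0444, rho = -0.30, permutation p = 0.193). So was Cxcl9 by rank (rho = -0.50, permutation p = 0.0251, r = -0.36, permutation p = 0.118). The part of depth in these levels was not tested.

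The interferon-inducible pair was low and uneven. Cxcl9 ranged from 0.293 CPM in Hi 10 to 3.17 CPM in Lo 4 around a median of 1.19 CPM. Cxcl10 ranged from 0.246 CPM in Hi 11 to 2.28 CPM in Lo 2 around a median of 0.668 CPM. The 3 highest Cxcl10 values, 2.28 CPM, 2.23 CPM and 1.60 CPM, belonged to Lo 2, Lo 1 and Lo 8, and these were the only tumors above 2 times the median of that gene. Cxcl9 was also at 2.32 CPM in Lo 8, but was at 1.57 CPM in Lo 2, so that the tumors highest for the pair were not the same.

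Cxcl12 and Cxcl16 had the highest CPM of the 10. Cxcl12 ranged from 11.2 CPM in Lo 3 to 55.0 CPM in Hi 5 with a median of 26.5 CPM. Cxcl16 ranged from 22.3 CPM to 44.0 CPM with a median of 31.8 CPM, and its lowest and highest tumors were the same Lo 3 and Hi 5. Cxcl16 was the steadiest member, at 1.97-fold between its extremes.

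The CC chemokines differed from each other in how they were distributed. Ccl2 ranged from 1.08 CPM in Hi 1 to 3.55 CPM in Hi 6 with a median of 2.22 CPM, without a tumor that stood apart. Ccl5 lay between 0.516 CPM in Hi 3 and 1.397 CPM in 19 tumors, with a median of 0.783 CPM, and was at 2.55 CPM in Lo 1. Ccl6 had the widest spread of log2 CPM among the 10. It ranged from 3.38 CPM in Hi 4 to 25.96 CPM in Hi 6 with a median of 8.29 CPM, and Lo 4 (25.7 CPM) and Lo 2 (21.5 CPM) came next to Hi 6, ahead of the next tumor at 13.5 CPM.

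**Figure D1:**
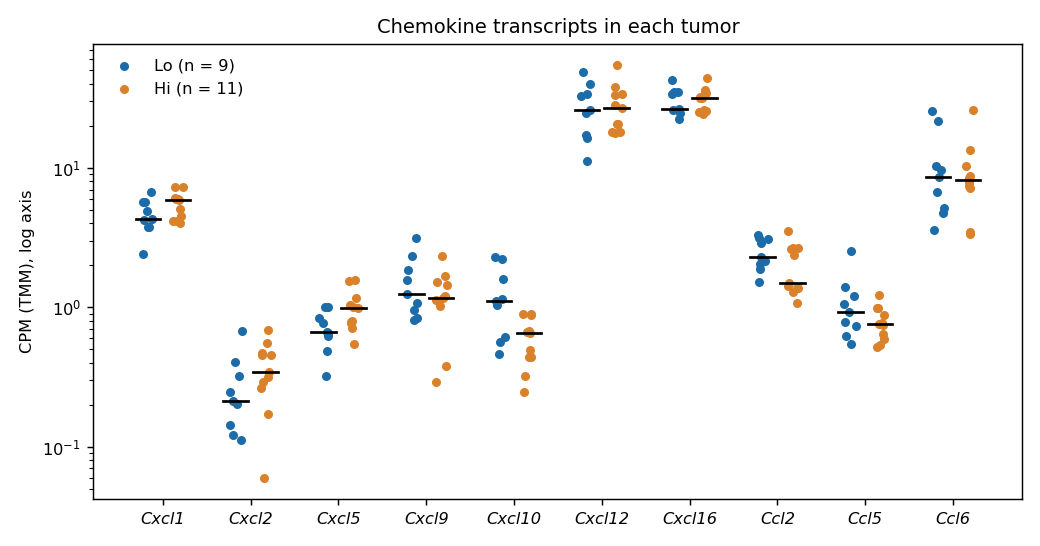
CPM (TMM-scaled, log axis) of each of the 10 chemokine genes in the 9 Lo (blue) and 11 Hi (orange) tumors, 1 point per tumor, with black bars at the group medians. Lo and Hi overlap for every gene, Cxcl12 and Cxcl16 lie highest, and 3 tumors at 21.5 CPM or more stand above the others for Ccl6.

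Per length, the order of the genes was different. Divided by the coding length that the table lists, the median level was 10.5 CPM per kb for Cxcl16, 5.25 for Cxcl1, 4.62 for Ccl6, 3.24 for Cxcl12 and 1.95 for Ccl2. The other 5 were lower, at 0.816 CPM per kb for Ccl5, 0.480 for Cxcl5, 0.440 for Cxcl10, 0.409 for Cxcl9 and 0.288 for Cxcl2. Cxcl16 exceeded Cxcl1 in 20 of 20 tumors, and Ccl2 exceeded Ccl5 in 19 of 20. Neighbors elsewhere in the order exchanged places: Cxcl1 exceeded Ccl6 in 14 tumors, Cxcl5 exceeded Cxcl10 in 10, and Cxcl10 exceeded Cxcl9 in 12, so that these neighbors were not separated beyond the spread between tumors.

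All 10 genes varied more between tumors than the median gene. The standard deviation (SD) of log2 CPM over the 20 tumors was 0.25 for the median of 18883 genes and 0.56 for the median of the chemokines. Ccl6 had an SD of 0.86, above 95.9% of the tested genes, followed by Cxcl10 (0.81, above 94.8%), Cxcl2 (0.78, above 94.1%) and Cxcl9 (0.77, above 93.8%). The smallest SD was that of Cxcl16 at 0.28, above 55.9% of genes, followed by Cxcl1 at 0.39, above 69.7%. For Cxcl2, Cxcl9 and Cxcl10, with medians of 14.5, 57.5 and 35 counts, counting error is part of this spread, whereas Ccl6 had a median of 413.5 counts. The same holds for Cxcl5 and Ccl5, with a median of 44.5 counts each, for which counting error is also part of the SD. Each tumor was sampled once, so that differences between pieces of 1 tumor are contained in these SDs.

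The receptors of these ligands ranged as widely in level. Cxcr4, the receptor of Cxcl12, was highest at a median of 12.6 CPM per kb and 14.4 to 31.7 CPM. Ccr1 (4.44 to 9.53 CPM), Ccr2 (3.18 to 12.5 CPM) and Ackr3 (2.15 to 10.2 CPM) were intermediate. The receptors that mark neutrophils and activated T cells were the lowest. Cxcr2 ranged from 0.222 to 0.702 CPM, Cxcr3 from 0.0756 to 0.568 CPM and Cxcr6, the receptor of Cxcl16, from 0.347 to 1.34 CPM. Cxcl16, the highest chemokine of the 10 per length, thus stood beside a receptor with a median of 0.296 CPM per kb.

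**Figure D2:**
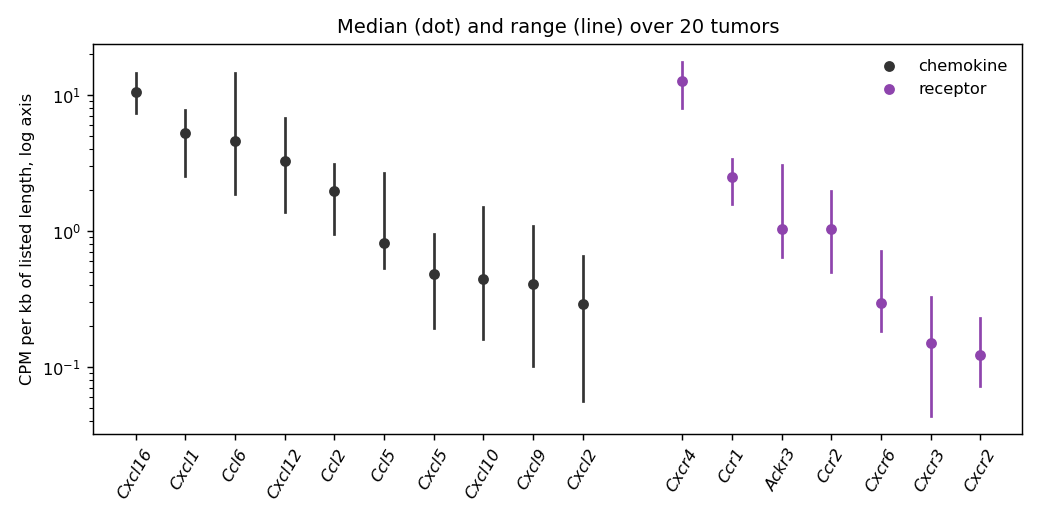
Level per length (CPM per kb of listed coding length, log axis) of the 10 chemokines and of 7 receptors that bind them, with dots at the median and lines over the range of the 20 tumors. The medians run from 0.288 (Cxcl2) to 10.5 (Cxcl16) among the ligands and from 0.123 (Cxcr2) to 12.6 (Cxcr4) among the receptors.

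None of the 11 ligand and receptor relations that were tested was called. The log2 CPM of each ligand was entered as a continuous term in edgeR's quasi-likelihood test over all other tested genes, with Benjamini-Hochberg adjustment and a threshold of 0.05. The share of all genes called was 0% for Cxcl1, 0.0212% for Cxcl2, 0.0106% for Cxcl5, 0% for Cxcl9, 0.71% for Cxcl10, 3.77% for Cxcl12, 3.49% for Cxcl16, 0% for Ccl2, 0% for Ccl5 and 1.35% for Ccl6. The closest ligand and receptor were Ccl2 and Ccr2, with Pearson's r = 0.61 (permutation p = 0.005) and Spearman's rho = 0.65 (permutation p = 0.0025) over the 20 tumors. Within groups r was 0.61 in Lo and 0.76 in Hi, and without the 2 tumors with the most extreme Ccl2 (Hi 1 and Hi 8) it was 0.53. Ccr2 was higher by 0.31 on the log2 scale per SD of Ccl2 (standard error 0.0821), with an adjusted p of 0.399 in edgeR. The other relations had r between -0.33 for Cxcl10 with Cxcr3 and 0.42 for Ccl6 with Ccr1.

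Ccr2 was instead called with Cxcl12 and with Cxcl16. It was higher by 0.39 (log2 per SD of Cxcl12, standard error 0.0753, edgeR adjusted p = 0.00488), with r = 0.76 (permutation p = 9e-05) and rho = 0.72 (permutation p = 0.00046). Without Lo 3 and Hi 5, the tumors with the lowest and highest Cxcl12, r was also 0.76 and the adjusted p 0.0348, and the call held without each of the 20 tumors in turn. Within Lo r was 0.85 and within Hi 0.63. With Cxcl16, Ccr2 was higher by 0.34 per SD (standard error 0.0862, edgeR adjusted p = 0.0297), and the fractalkine receptor Cx3cr1 (0.18 per SD, adjusted p = 0.0402) and the chemerin receptor Ccrl2 (0.20 per SD, adjusted p = 0.0223) were called too, 3 of the 17 receptors tested. Without Lo 3 and Hi 5 the sizes were 0.36, 0.16 and 0.18 per SD, and none of the 3 passed the threshold, in a fit in which the genes called with Cxcl16 went from 659 to 48.

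Lists of marker genes were then used to ask which chemokines varied with which cell type or response. A list's score is the mean, over its tested genes, of the z-score of log2 CPM, and 70 relations (10 chemokines with 7 lists) were computed. In bulk tumors fewer cells of a type and less RNA per cell cannot be told apart. The lists had been chosen with earlier results of these data known, and marker genes can be made by more than 1 cell type.

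With interferon-stimulated genes, Cxcl10 was called in edgeR. An unadjusted p under 0.05 was found for 5 of the 10 chemokines and for 1661 of the 18883 genes tested. Of these chemokines Cxcl9, Cxcl10 and Ccl5 were higher with the score, and Cxcl1 and Cxcl2 were lower. Cxcl2 was at -0.36 log2 per SD, with an unadjusted p of 0.0482 in edgeR. With the score of 12 interferon-stimulated genes (Isg15, Ifit1, Mx1, Irf7 and others), 1 of 10 chemokines was called against 1.27% of all genes. The median over the chemokines was 0.15 log2 per SD against 0.00 over all genes. Cxcl10 was higher by 0.63 per SD of the score (standard error 0.109, edgeR adjusted p = 0.00118), with r = 0.77 (permutation p = 4e-05) and rho = 0.70 (permutation p = 0.00092). Lo 2 and Lo 1 had the highest scores and the highest Cxcl10. Without this pair Cxcl10 was higher by 0.51 per SD with an r of 0.59, and the call was lost (adjusted p = 0.313), whereas leaving out any single tumor kept it (highest adjusted p = 0.017, without Lo 1). Within groups r was 0.77 in Lo and 0.53 in Hi, and with Lo or Hi as a term in the fit the adjusted p was 0.0519. All 12 genes were tested, none was at 0 in a tumor, and they summed to 136 to 820 CPM in Lo and 87.6 to 342 CPM in Hi.

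The other members did not pass the threshold in edgeR, and whether they differ from Cxcl10 in this was not tested. Cxcl9, the neighbor of Cxcl10, had r = 0.57 with the score (permutation p = 0.00973, rho = 0.60, permutation p = 0.00541) and an edgeR adjusted p of 0.225. Without Lo 2 and Lo 1, Cxcl9 was at r = 0.60 and 0.57 per SD, close to the 0.59 and 0.51 of Cxcl10. Ccl5 had r = 0.57 (permutation p = 0.00965) but rho = 0.37 (permutation p = 0.11), an r of 0.87 within Lo against -0.43 within Hi, and an adjusted p of 0.106. Its relation rested on Lo 1 and Lo 2, without which r was 0.16. Cxcl1 ran the other way, with r = -0.68 (permutation p = 0.00098) and rho = -0.64 (permutation p = 0.00276), and r was -0.63 without Lo 2 and Lo 1, -0.69 within Lo and -0.47 within Hi. Its log2 difference per SD was -0.25 (standard error 0.0685), with an edgeR adjusted p of 0.0839, which DESeq2 put at 0.0183 (DESeq2 called Cxcl1 and Cxcl10 with this list, and 1.82% of all genes).

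Ccl6 was called with macrophage markers. With the score of 10 of them (Csf1r, Cd68, Mrc1, the C1q genes and others) 1 of 10 chemokines was called against 1.47% of all genes, with a median of 0.18 per SD over the chemokines and 0.00 over all genes. Ccl6 was higher by 0.64 per SD (standard error 0.128, edgeR adjusted p = 0.0246), with r = 0.70 (permutation p = 0.00064), rho = 0.58 (permutation p = 0.00815), 0.67 within Lo and 0.74 within Hi. Lo 3 and Hi 4 were the lowest tumors for the score and among the lowest for Ccl6. Without them Ccl6 was still higher by 0.65 per SD, with an r of 0.57 and an adjusted p of 0.178, and removal of Hi 4, Hi 6 or Lo 4 alone also lost the call, up to 0.0822 without Lo 4. No macrophage marker was at 0 in any tumor, and the 10 summed to 274 to 427 CPM in Lo and 298.5 to 462 CPM in Hi. Cxcl16 had r = 0.61 with this score (permutation p = 0.00372, rho = 0.57, permutation p = 0.00974) and an edgeR adjusted p of 0.0785, which DESeq2 put at 0.0286. DESeq2 called both Ccl6 and Cxcl16 with this list, and 4.39% of all genes.

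With fibroblast markers (Col1a1, Pdgfra, Dcn, Lum and others) 2 of 10 chemokines were called, Cxcl12 and Ccl6, against 1.92% of all genes, and DESeq2 called 2 of 10 against 3% of all genes. The median was 0.14 per SD over the chemokines and 0.00 over all genes. Cxcl12, a known product of fibroblasts, was higher by 0.38 per SD (standard error 0.0961, edgeR adjusted p = 0.0348), with r = 0.67 (permutation p = 0.00125), rho = 0.64 (permutation p = 0.00341), 0.70 within Lo and 0.64 within Hi. Ccl6 was higher by 0.60 per SD (standard error 0.139, edgeR adjusted p = 0.021), with r = 0.66 (permutation p = 0.00149), rho = 0.62 (permutation p = 0.00401), 0.79 within Lo and 0.53 within Hi. Tumors Lo 3 and Lo 4 held the lowest and highest scores, and without them Cxcl12 was higher by 0.29 per SD (r = 0.46) and Ccl6 by 0.53 (r = 0.49), and neither call was kept. The call of Ccl6 was lost without Lo 3 or without Lo 4 alone, and that of Cxcl12 without any of Lo 3, Lo 4, Lo 8, Hi 4, Hi 5, Hi 9, Hi 10 and Hi 11, with adjusted p up to 0.231. The fibroblast and macrophage scores themselves went together (r = 0.63, permutation p = 0.00284, 0.83 within Lo and 0.39 within Hi), so that their parts in the level of Ccl6 cannot be told apart. The 10 fibroblast markers were above 0 in every tumor and summed to 643 to 2362 CPM in Lo and 719 to 1896 CPM in Hi.

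With T cell markers 1 of 10 chemokines was called, Cxcl12, against 0.996% of all genes (median -0.01 per SD over the chemokines and 0.00 over all genes). It was higher by 0.38 per SD (standard error 0.0923, edgeR adjusted p = 0.0465), with r = 0.67 (permutation p = 0.0012), rho = 0.66 (permutation p = 0.00177), 0.59 within Lo and 0.80 within Hi, and without Hi 5 and Lo 3 it was higher by 0.26 per SD (r = 0.45, not called). The call was also lost without any of 14 tumors (Lo 2, Lo 3, Lo 6, Lo 7, Lo 9, Hi 1, Hi 2, Hi 3, Hi 5, Hi 6, Hi 7, Hi 9, Hi 10 and Hi 11), with an adjusted p of up to 0.303 without Hi 5, and with no filter on low counts. DESeq2 called Cxcl12 alone of the 10 too, against 2.92% of all genes. T cell transcripts were scarce, since 7 of the 10 markers passed the filter, the 10 summed to 2.44 to 5.08 CPM in Lo and 2.87 to 7.63 CPM in Hi, and Cd3d, Cd2, Cd6 and Cd28 were at 0 in at least 1 tumor. Of these sums Lck alone gave 1.37 to 3.21 CPM. Cxcl9 and Cxcl10, the T cell attractants, had r = 0.27 and r = -0.01 with this score.

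No chemokine was called with neutrophil, endothelial or epithelial markers in edgeR, against 0.0953%, 1% and 3.03% of all genes. At an unadjusted p under 0.05 the numbers of chemokines were 1 (Cxcl16), 1 (Cxcl12) and 0. Over all 18883 genes tested they were 3293, 1702 and 4045. DESeq2 also called none of the 10 with these 3 lists, against 3.27%, 1.68% and 6.97% of all genes. Of the neutrophil markers 4 of 10 were tested, and Ly6g, Mmp8, Ngp, Retnlg, Camp and Stfa2l1 were at 0 in at least 1 tumor. The list summed to 75.8 to 2924 CPM, of which Ltf, which the mammary epithelium also makes, alone gave 70.5 to 2915 CPM. Csf3r (2.82 to 6.76 CPM), S100a9 (1.01 to 2.20 CPM) and S100a8 (0.531 to 4.13 CPM) were present in every tumor. The neutrophil attractants Cxcl1, Cxcl2 and Cxcl5 had r = -0.05, 0.44 and -0.19 with the score. For Cxcl2 rho was 0.27, and r was 0.18 without Hi 3 and Hi 4, the tumors with the lowest scores. The neutrophil score itself went with the epithelial score (r = 0.69, permutation p = 0.00065, 0.16 within Lo and 0.90 within Hi). It also went with the macrophage score (r = 0.53, permutation p = 0.0175), so that relations to these lists cannot be told apart.

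**Figure D3:**
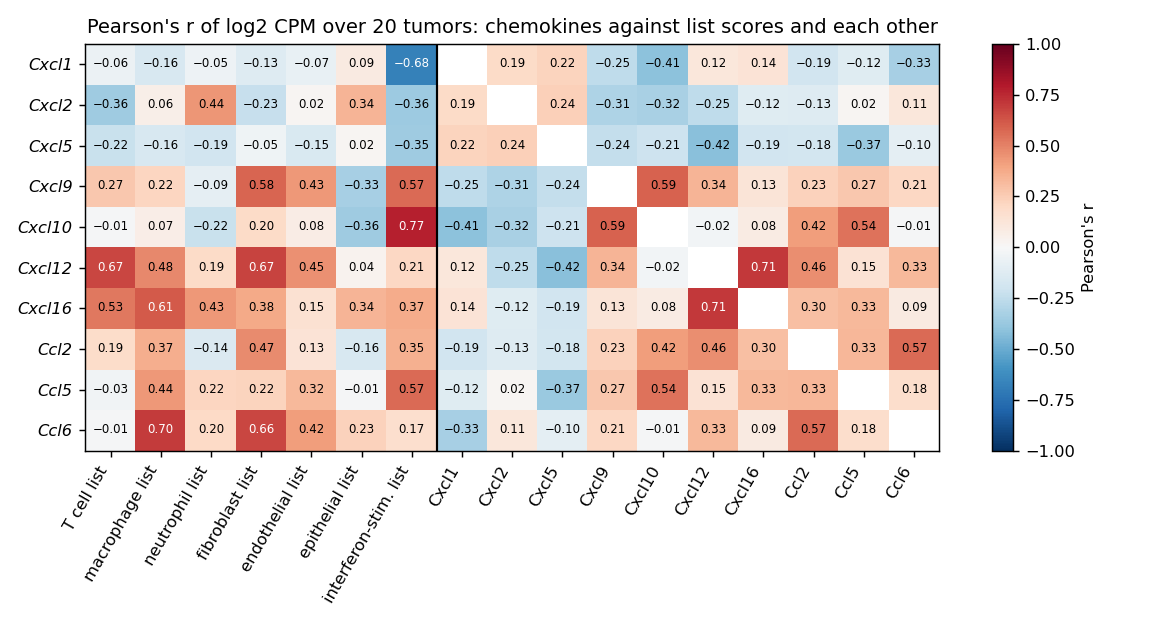
Pearson's r over the 20 tumors between the log2 CPM of each chemokine (rows) and 7 marker list scores (left of the line) or the other chemokines (right), on a color scale from -1 (blue) to 1 (red). The highest r with a list is 0.77, for Cxcl10 with interferon-stimulated genes, and the highest between chemokines 0.71, for Cxcl12 with Cxcl16.

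Among the 45 pairs of chemokines, 1 was called, Cxcl12 with Cxcl16, which act on different receptors. They were also the members with the largest shares of all genes called, 3.77% with Cxcl12 and 3.49% with Cxcl16. The r of this pair was 0.71 (permutation p = 0.00065) and rho 0.65 (permutation p = 0.00264), with 0.74 within Lo and 0.67 within Hi. Cxcl16 was higher by 0.20 per SD of Cxcl12 (standard error 0.0456, edgeR adjusted p = 0.0144), and Cxcl12 by 0.41 per SD of Cxcl16 (adjusted p = 0.0113). Tumors Lo 3 and Hi 5 held the extremes of both genes. Without them r was 0.55 and the sizes were 0.17 and 0.31 per SD, with adjusted p of 0.291 and 0.248, and without Hi 5 alone the adjusted p of Cxcl16 was 0.105.

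Members that share a receptor were not called with each other. The 3 ligands of Cxcr2 had r = 0.19 (Cxcl1 with Cxcl2), 0.22 (Cxcl1 with Cxcl5) and 0.24 (Cxcl2 with Cxcl5), although Cxcl1 and Cxcl2 lie side by side and carry the same NF-kB match in the sequences above. Cxcl9 and Cxcl10, the ligands of Cxcr3, had r = 0.59 (permutation p = 0.00641), rho = 0.55 (permutation p = 0.0122), 0.54 within Lo, 0.62 within Hi and an edgeR adjusted p of 0.438. Ccl5 and Ccl6, which share Ccr1, had r = 0.18 and an edgeR adjusted p of 0.866. Pairs with different receptors above also reached such values of r without a call. Ccl2 and Ccl6 had r = 0.57 (permutation p = 0.00896) and rho = 0.55 (permutation p = 0.0138), with an edgeR adjusted p of 0.397. Both of the latter were highest in Hi 6, followed by Lo 4. Cxcl10 and Ccl5, whose receptors named above also differ, had r = 0.54 (permutation p = 0.0125). This r was 0.80 within Lo, -0.22 within Hi and 0.17 without Lo 2 and Lo 1.

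**Figure D4:**
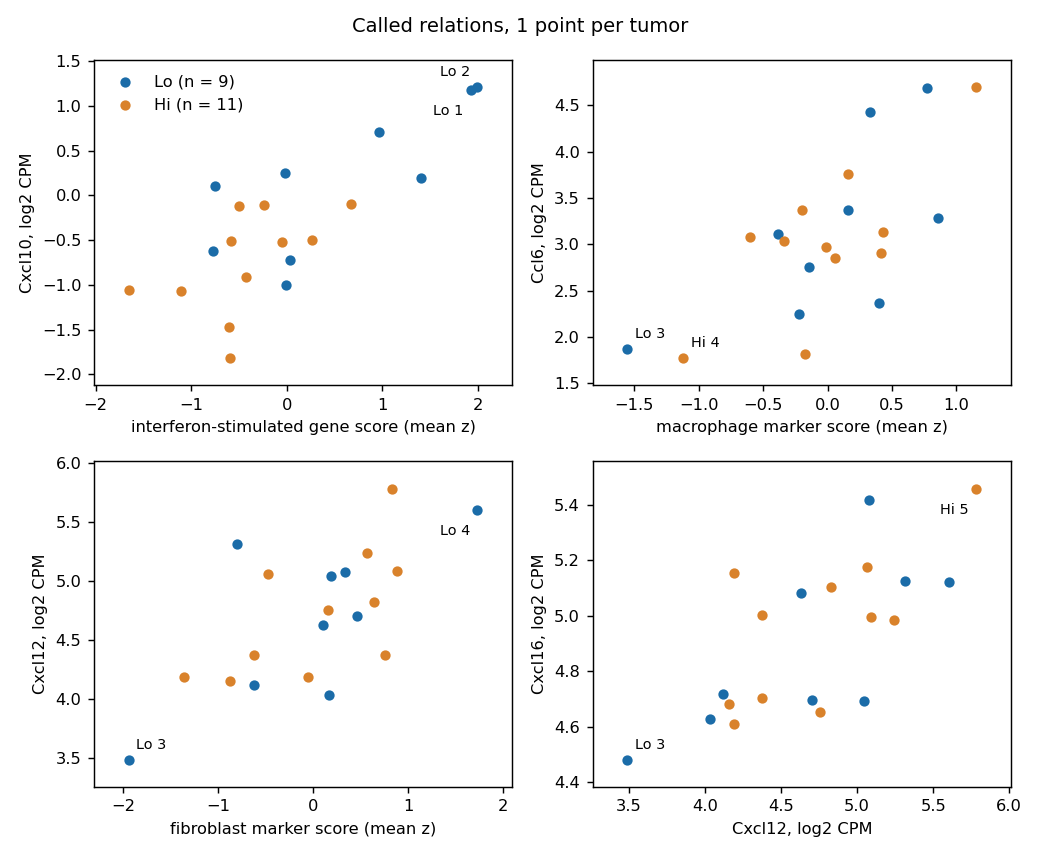
Relations called over all genes, 1 point per tumor (Lo blue, Hi orange), of log2 CPM against a list score (mean z-score) or the log2 CPM of another chemokine, with names beside the 2 tumors most distant from each horizontal axis's median. Pearson's r is 0.77 for Cxcl10, 0.70 for Ccl6, 0.67 for Cxcl12 and 0.71 for Cxcl16, and without the 2 named tumors 0.59, 0.57, 0.46 and 0.55.

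Ccl6 was instead followed by chemokines outside the 10. Of 17 others tested, 5 were called with Ccl6, all higher, against the 1.35% of all genes given above. Ccl8 was higher by 0.66 per SD of Ccl6 (r = 0.89, edgeR adjusted p = 1.51e-05), Pf4 by 0.63 (r = 0.89, adjusted p = 7.3e-05) and Ccl9 by 0.40 (r = 0.88, adjusted p = 7.95e-05). These 3 calls held without Hi 6 and Lo 4, the tumors with the highest Ccl6. Ccl7 (r = 0.68, adjusted p = 0.0207) and Ccl11 (r = 0.70, adjusted p = 0.0262) were higher by 0.39 each, and without those 2 tumors by 0.36 and 0.41, no longer past the threshold. Ccl6 and Ccl9 are similar genes of the same cluster, and reads shared between them cannot be told apart here.

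The genes most like each chemokine were named by the highest r of log2 CPM over the 20 tumors among 18873 other genes, as a description. For Cxcl16 these were the MHC class II genes H2-Aa (r = 0.93), H2-Ea-ps (0.91) and H2-Eb1 (0.91), of which H2-Ea-ps is annotated as a pseudogene in the reference strain. For Ccl6 they were Nxpe5 (0.95), Lyve1 (0.94), the hyaluronan receptor of lymphatic vessels and tissue macrophages, and Gpr133 (0.94). Cxcl12 was nearest to Rasl11b (0.93), Pianp (0.92) and Plscr4 (0.92). Cxcl10 was nearest to the RNA-editing enzyme gene Adar (0.85), Lpin2 (0.85) and Znfx1 (0.85), and Znfx1 was also among the 3 nearest to Ccl5 (0.72), after Crat (0.75) and Rem1 (0.74). For Ccl2 they were Slc43a1 (0.86), its own neighbor Ccl7 (0.77) and Gm26732 (0.75). Cxcl9 was nearest to Ppap2a (0.80), Epha3 (0.78) and the interferon-inducible Gbp4 (0.71). For the neutrophil attractants the highest were Myo1e (0.84), Add1 (0.76) and Socs5 (0.74) with Cxcl1, 3830432H09Rik (0.91), Armc10 (0.77) and Ebpl (0.77) with Cxcl2, and 4931431C16Rik (0.79), Vma21 (0.77) and Pphln1 (0.76) with Cxcl5.

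How many genes came that close differed among the members. An r above 0.7 was found for 316 genes with Cxcl12, 302 with Cxcl16, 187 with Ccl6 and 96 with Cxcl10. It was found for 28 genes with Cxcl5, 11 each with Cxcl2 and Ccl2, 7 each with Cxcl1 and Cxcl9 and 5 with Ccl5. The members with fewest such genes were not all the scarcest, since Cxcl1 had a median of 289.5 counts.

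Between Lo and Hi, no chemokine was called. The question this comparison answers is open, since the meaning of the names is not known, and it was run because they divide the samples. In edgeR's quasi-likelihood test 0 of the 10 chemokines and 0% of the 18883 genes passed an adjusted p of 0.05. An unadjusted p under 0.05 was found for 1045 genes, where chance alone gives about 944. DESeq2 called none of the 10 and 1 gene in all (0.0053%). The median log2 fold change, Hi minus Lo, was -0.07 over the chemokines and 0.00 over all genes.

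Cxcl10 and Cxcl5 had an unadjusted p under 0.05. Cxcl10 ranged from 0.462 through a median of 1.11 to 2.28 CPM in Lo and from 0.246 through 0.660 to 0.895 CPM in Hi. The groups overlapped, and 6 Lo tumors lay above the highest Hi tumor. Its mean was 1.23 ± 0.681 CPM (SD, n = 9, Lo) against 0.601 ± 0.230 CPM (SD, n = 11, Hi). The log2 fold change of Cxcl10 by edgeR was -1.02, with a standard error of 0.295, an unadjusted p of 0.00221 and an adjusted p of 0.655. Cxcl5 was at 0.709 ± 0.225 CPM (SD, Lo) and 0.994 ± 0.327 CPM (SD, Hi), and its log2 fold change was 0.48, with a standard error of 0.215 and an adjusted p of 0.867 in edgeR. Lo also held the higher summed level of interferon-stimulated genes given above, and the part of that response in the Cxcl10 difference was not tested. The other 8 genes had log2 fold changes between -0.47 (Ccl5) and 0.44 (Cxcl2).

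**Figure D5:**
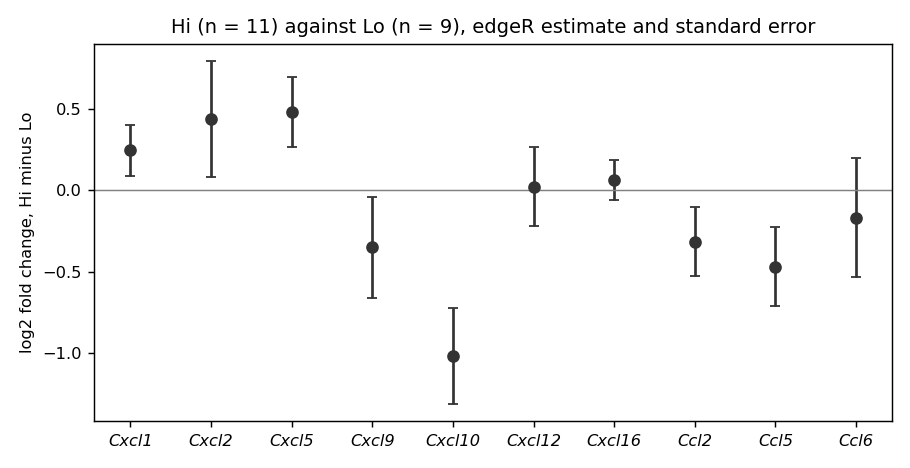
Log2 fold change of each chemokine, Hi minus Lo, as estimated by edgeR (9 Lo and 11 Hi tumors). Bars are standard errors derived from the estimate and the F statistic of its test. The estimates lie between -1.02 (Cxcl10) and 0.48 (Cxcl5), and no gene has an adjusted p under 0.05.

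Read by tumor, single tumors were extreme for more than 1 chemokine. Hi 6 had the highest Cxcl2, Ccl2 and Ccl6 of the 20, and Lo 3 the lowest Cxcl12 and Cxcl16 together with the lowest macrophage, fibroblast, endothelial and T cell scores. Hi 5 had the highest Cxcl12 and Cxcl16 and the highest T cell score. Lo 2 had the highest Cxcl10 and the lowest Cxcl1, and Lo 1 the highest Ccl5. Each tumor is a single animal and a single library, so that differences between animals, pieces and libraries are not separated in these values.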

How the data were processed

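RNA of 20 tumors was prepared with the TruSeq mRNA kit and sequenced. The deposited table holds the authors' counts for each gene in each tumor, not normalized, made per the labels with TopHat2 2.0.12 on mm10 and featureCounts 1.4.4 from reads trimmed to 100 bases. A human build is also named in the processing notes, and its use is not given in the sources used here, nor are the annotation release and the strand setting. The reads of these F1 mice were aligned to a C57BL/6 reference.

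The members and gene lists were chosen with earlier results of these data known. Genes were named by rule: the members, their receptors, the 3 genes with the highest r per member, other chemokines and receptors that were called or were among the 3 highest of their list, and markers at 0 in a tumor. Counts were filtered (filterByExpr), TMM-scaled and tested with edgeR 4.0.16 (quasi-likelihood, Benjamini-Hochberg over all genes, 0.05) in R 4.3.3, with DESeq2 1.42.0 as an alternative, and the scripts were tested on simulated data. The standard errors beside edgeR values are approximate, derived from the size of the log2 value and the F statistic of its test. Correlations used Python 3.11.15 and scipy 1.17.1, with 100000 permutations (two-sided, smallest p 1e-05). Promoters came from RefSeq. Leaving out each tumor in turn was added after seeing the data. The marker Adgre1 was found under its older symbol Emr1. Total counts were 38765682 to 65465755 per tumor. Nothing says that p-values cover more than the spread between these tumors. Allele counts are not analysed here. The results of 1 receptor are not reported here.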

Additional observations from a re-analysis of the deposited data

Results flagged for a closer look

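The CPM of Ccl5 in tumor Lo 1 was 2.55, which lay far from the other 8 Lo tumors, the next of which was at 1.397 CPM. The gap between them, as a share of the group's range, was 0.575 and passed Dixon's 95% limit for 9 values. On log2 CPM it was 0.397 and did not pass. The 10 chemokines were examined this way in the Lo tumors (the Hi group, with 11 tumors, is too large for this rule), and chance alone gives about 0.5 such values in 10. Lo 1 also had the second highest Cxcl10 and the second highest score of interferon-stimulated genes.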

How the results depend on the processing

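In Lo against Hi, 0 chemokines were called under every alternative run, and over all genes 1 was called with no filter and 1 with DESeq2 against 0. In a fit with a replicate block on the sample numbers (18 tumors, 9 pairs), Cxcl12 went to -0.022 and Ccl6 to 0.0053 from 0.02 and -0.17. The same-numbered tumors shared only a number (r of their deviations from -0.418 to 0.208, over 0.1 in 3 of 9 pairs), and the block moved no call.

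Without the 2 tumors farthest from the median, 0 chemokines were called with T cell markers (1 in the report), 0 with macrophage markers (1), 0 with fibroblast markers (2), 0 with interferon-stimulated genes (1), and 0 with another chemokine (2). With Lo or Hi as a term 0 were called with interferon-stimulated genes, and with no filter on low counts 0 with T cell markers. With DESeq2, 2 were called with macrophage markers and 2 with interferon-stimulated genes. The smaller number of tumors is part of the first of these settings, and otherwise the cause was not tested.

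Over all genes, leaving out the 2 farthest tumors lowered the number called from 188 to 0 (T cell), 277 to 0 (macrophage), 18 to 0 (neutrophil), 362 to 54 (fibroblast), 189 to 45 (endothelial), 573 to 0 (epithelial) and 239 to 128 (interferon-stimulated), and changed it from 4 to 2 (Cxcl2), 2 to 7 (Cxcl5), 134 to 0 (Cxcl10), 712 to 57 (Cxcl12), 659 to 48 (Cxcl16), 0 to 57 (Ccl2) and 254 to 38 (Ccl6). With Lo or Hi as a term, 4 genes were called with neutrophil markers and 7 with Cxcl10, and with no filter 163 with neutrophil markers. DESeq2 called 551 (T cell), 829 (macrophage), 593 (neutrophil), 567 (fibroblast), 317 (endothelial) and 1316 (epithelial). Single tumors also moved these numbers. With T cell markers the number was 2 without Hi 5, 34 without Lo 7, 42 without Hi 2 and 67 to 349 without each of the other tumors. With macrophage markers it was 22 without Hi 4, 24 without Lo 4, 83 without Hi 6, 94 without Hi 10, 112 without Lo 3, 173 without Lo 9 and 493 without Hi 7. With fibroblast markers it was 162 without Lo 4 and 176 without Lo 3, and with Cxcl12 it was 162 without Hi 5. The SD of log2 CPM of the median chemokine was 0.56 to 0.59 under 3 other scalings. Of the values of single genes under these alternatives, 147 stayed in direction and in call, 30 lost a call, 2 gained one and 2 are the turned signs above. Depth limits Cxcl2 most, at 3 to 36 counts.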

Other observations

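Other chemokines exceeded the 10 in level. Per length, Cxcl14 (median 35.8 CPM per kb), Ccl8 (31.5) and the fractalkine gene Cx3cl1 (16.9) were the highest of the 28 others in the list, of which 17 passed the filter and 12 were at 0 in at least 1 tumor. Among the 12 were Cxcl3, a relative of Cxcl1 and Cxcl2 with at most 2 counts in a tumor, and Cxcl11, the remaining ligand of Cxcr3, with at most 16. Of 23 receptors, 17 passed the filter, and Cxcr1, Ccr3, Ccr4, Ccr7, Ccr8 and Ackr1 were at 0 in at least 1 tumor.

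With fibroblast markers 5 of the 17 other chemokines were called in edgeR, all higher, against 1.92% of all genes. They were Ccl11, the eosinophil attractant (0.45 log2 per SD, adjusted p = 0.00445), Ccl8 (0.49, adjusted p = 0.0227), Ccl9 (0.29, adjusted p = 0.0334), Ccl7 (0.37, adjusted p = 0.0376) and Cxcl14 (0.26, adjusted p = 0.0427). Of the 17 receptors tested 1 was called, Ccr2 (0.32, adjusted p = 0.0356). Without Lo 3 and Lo 4 none passed the threshold, at sizes of 0.39 (Ccl11), 0.49 (Ccl8), 0.26 (Ccl9), 0.40 (Ccl7), 0.33 (Cxcl14) and 0.21 (Ccr2). Ccl11 was also called with endothelial markers (0.42, adjusted p = 0.0205, and 0.33, adjusted p = 0.51 without Lo 3 and Lo 4), whose score went with the fibroblast score (r = 0.71). Ccl9 was called with macrophage markers (0.30, adjusted p = 0.0426), but not without Lo 3 and Hi 4 (0.34, adjusted p = 0.226) or with Lo or Hi as a term (adjusted p = 0.0514). With epithelial markers, Ccr10 (-0.42, adjusted p = 0.0205), Ccr9 (-0.44, adjusted p = 0.0492) and Xcl1 (-0.59, adjusted p = 0.0456) were lower in edgeR. They are 2 of 17 receptors and 1 of 17 other chemokines tested, against 3.03% of all genes. Without Hi 11 and Hi 3 they were at -0.49, -0.55 and -0.64 and none passed the threshold, in a fit in which 0 genes did. With Lo or Hi as a term, or with no filter, Ccr10 was called but Ccr9 and Xcl1 were not. Their edgeR adjusted p with all 20 tumors was up to 0.0788 (Ccr9) and 0.0623 (Xcl1). Ccr9 rested on 5 to 31 counts and Xcl1 on 6 to 72.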
